A study of Mus musculus with 8 samples.

Results

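The transcripts described are 10 enzymes that set the level of cyclic AMP (cAMP) in tumor-associated macrophages (TAMs), found by gene symbol among the 53247 genes of the deposited table. They comprise 5 adenylate cyclases, which make cAMP from ATP (Adcy3, Adcy4, Adcy6, Adcy7 and Adcy9), and 5 phosphodiesterases that break it down (Pde4a, Pde4b, Pde4d, Pde7a and Pde8a). RNA-Seq of TAMs compared 4 samples from WT C57/BL6 mice with 4 from miR-21 null (miR-21-/-) mice of the same strain. All hosts were given as 10 weeks old and carried s.c. tumors for 14 days, grown from LLC, which are Lewis lung carcinoma cells of the mouse, and the implanted tumor cells did not differ between the groups. The null allele was carried by every cell of the host, not by macrophages alone. The miR-21-/- replicate 1 carries 2 numbers in its title, and whether it pools animals is not stated. The sort took cells positive for CD45, CD11b, F4/80 and MHCII. The members were chosen by values of this same comparison, since the list was put together around the strong fall of Adcy3 in miR-21-/- TAMs. The difference between the genotypes is therefore given for the members as a description, with no test.

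cAMP is a second messenger. Receptors for adenosine and prostaglandin E2 that couple to the stimulatory G protein Gs switch adenylate cyclases on, and cAMP then acts through protein kinase A (PKA) and the exchange factor Epac. In macrophages a high cAMP level is known to dampen inflammatory cytokine production, and phosphodiesterases of the PDE4 family, the targets of rolipram, limit it. miR-21 is a microRNA that represses transcripts whose 3′ untranslated region (3′ UTR) pairs with its seed, bases 2 to 8.

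Values are counts per 1e+06 reads (CPM), and the commonest step among the low values of a sample, taken as the worth of 1 read, was 0.0300 to 0.0495 CPM, which gives a depth of 20.2 to 33.4 (unit, 1e+06 reads). Some values were smaller than this step, so reads were not all counted whole. Samples of the same genotype correlated with r of 0.988 to 0.995 over 12 pairs across genes, and those of different genotype with r of 0.970 to 0.981 over 16 pairs. Genes are not independent replicates. Mir21a was listed at 0 in all 8 samples, so it did not check the labels. Vmp1, the gene that spans it on the same strand, was at 115 to 133 CPM in WT and 373 to 426 CPM in miR-21-/- TAMs. What the null allele does to Vmp1 is not given in the sources used here, so these values are a description. The 10 macrophage markers summed to 10278 to 11687 CPM in WT and 10191 to 11028 CPM in miR-21-/- TAMs, and none of them was at 0. The limits used throughout were those the study states, an adjusted p (Benjamini-Hochberg, limma) of no more than 0.005 together with a fold change over 1.5. Of these markers only the Fc receptor Fcgr1 passed, at 230 to 305 CPM in WT and 411 to 518 CPM in miR-21-/- samples, and it rose. Adgre1, at 542 to 583 and 399 to 466 CPM, and Csf1r, at 1108 to 1474 and 866 to 1044 CPM, did not pass, but their groups did not overlap. The limits were passed by 7.12% of the 13850 genes tested, 2.89% of them higher and 4.23% lower in miR-21-/- TAMs, and the 4 WT and 4 miR-21-/- values of 35.1% of all tested genes did not overlap. With rescaling by the median of ratios the split was 520 higher and 350 lower in place of 400 and 586, and with quantile normalization 491 and 337. All 10 members were among the genes tested, and 5 passed these limits, 2 higher and 3 lower, while 8 had groups that did not overlap. These counts follow the choice of the list, are no test of the members, and nothing is read from them.

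Adcy3, a cyclase stimulated by calcium and calmodulin and best known from olfactory neurons, was the member that differed most. The gene lies at chr12:4133103-4213525 on the plus strand in the table's coordinates (mm10). Its level was 34.9, 42.7, 37.4 and 14.7 CPM in WT samples 1 to 4 and 3.32, 6.58, 2.35 and 4.46 CPM in miR-21-/- samples 1 to 4. Every WT sample lay above every miR-21-/- sample, and WT replicate 4 stood below the other WT samples. The means were 32.4 ± 12.3 and 4.18 ± 1.82 CPM (SD, n = 4 each), a ratio of 7.75. As log2(CPM + 1), a scale on which low genes appear to change less than they do, the difference was -2.66 ± 0.33 (SE), and it was -2.99 without WT replicate 4. The lowest value stood for about 61 reads. Cenpo, a centromere protein gene on the opposite strand at 9.63 to 23.4 CPM, shares 1380 exon bases with Adcy3, and since the strand setting of the counting is not given in the sources used here, reads of the shared part cannot be told apart. Cenpo itself was at 16.4 to 23.4 CPM in WT and 9.63 to 14.1 CPM in miR-21-/- TAMs.

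RefSeq lists a pair of start sites of Adcy3, and the windows from 250 bases before to 50 bases after each start are shown because Adcy3 carries the largest difference among the members. Capitals mark a match to TTCNNNGAA, the form of an interferon gamma activated site, in the first (from -238 to -230 relative to the start) and to GAGGAAGT, a form bound by the macrophage factor PU.1, in the second (from -226 to -219). Both windows are on the plus strand of chromosome 12 in GRCm38.p6, chr12:4133147-4133446 and chr12:4133903-4134202.
Adcy3 first start: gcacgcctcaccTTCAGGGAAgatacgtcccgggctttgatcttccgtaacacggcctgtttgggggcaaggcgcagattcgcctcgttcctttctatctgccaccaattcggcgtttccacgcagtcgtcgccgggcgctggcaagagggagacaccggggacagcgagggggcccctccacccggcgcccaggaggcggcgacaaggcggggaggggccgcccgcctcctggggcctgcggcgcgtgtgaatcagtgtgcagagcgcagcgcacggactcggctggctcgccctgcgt
Adcy3 second start: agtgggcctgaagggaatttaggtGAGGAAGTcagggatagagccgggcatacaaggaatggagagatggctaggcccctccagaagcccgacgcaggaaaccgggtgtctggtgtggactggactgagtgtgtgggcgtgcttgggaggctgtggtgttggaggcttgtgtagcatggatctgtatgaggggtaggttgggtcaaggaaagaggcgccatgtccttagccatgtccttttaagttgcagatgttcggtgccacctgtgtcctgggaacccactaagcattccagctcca

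Adcy4, Adcy6, Adcy7 and Adcy9 differed in sign and size. Adcy4, a cyclase that G protein beta-gamma subunits can stimulate, differed in the opposite direction to Adcy3. It was measured at 2.01, 3.57, 2.47 and 1.95 CPM in WT and at 10.9, 6.33, 8.60 and 11 CPM in miR-21-/- samples. All miR-21-/- values were above all WT values, with means of 2.50 ± 0.749 and 9.21 ± 2.22 CPM (SD, n = 4 each), a ratio of 3.68, and a log2 difference of 1.54 ± 0.19 (SE). Adcy4 (chr14:55769057-55784095, minus strand) is known from endothelial cells as well, and 8 endothelial markers summed to 152 to 301 CPM in WT and 198 to 286 CPM in miR-21-/- TAMs, with none of the 3 tested past the limits and Tek, Tie1, Cldn5 and Emcn under 0.5 CPM in every sample. Most of these sums was Pecam1, which leukocytes express too, at 132 to 282 CPM in WT and 186 to 275 CPM in miR-21-/- samples. The part of endothelial cells in the level of Adcy4 was not tested. In such bulk samples, fewer cells of a type and less RNA per cell cannot be told apart.

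Adcy7, the cyclase known as the main form of blood cells (chr8:88272403-88329962, plus strand), held the highest level per length of the members in WT TAMs. Its level was 242, 243, 256 and 227 CPM in WT and 168, 153, 144 and 161 CPM in miR-21-/- samples. The groups were far apart for their small spread, at 242 ± 11.6 and 157 ± 10.6 CPM (SD, n = 4 each), and the log2 difference was -0.63 ± 0.062 (SE). With rescaling by the median of ratios it was -0.51. Adcy6, a cyclase inhibited by calcium, was at 3.68, 4.85, 4.11 and 4.51 CPM in WT and at 3.10, 3.45, 2.80 and 2.07 CPM in miR-21-/- samples. The groups were close but did not overlap, and the log2 difference was -0.46 ± 0.13 (SE). Adcy9, a cyclase little affected by forskolin, was at 6.22, 9.04, 8.06 and 5.78 CPM in WT and at 5.0, 6.06, 5.61 and 5.32 CPM in miR-21-/- samples. Its groups overlapped, with a log2 difference of -0.33 ± 0.13 (SE).

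**Figure D1:**
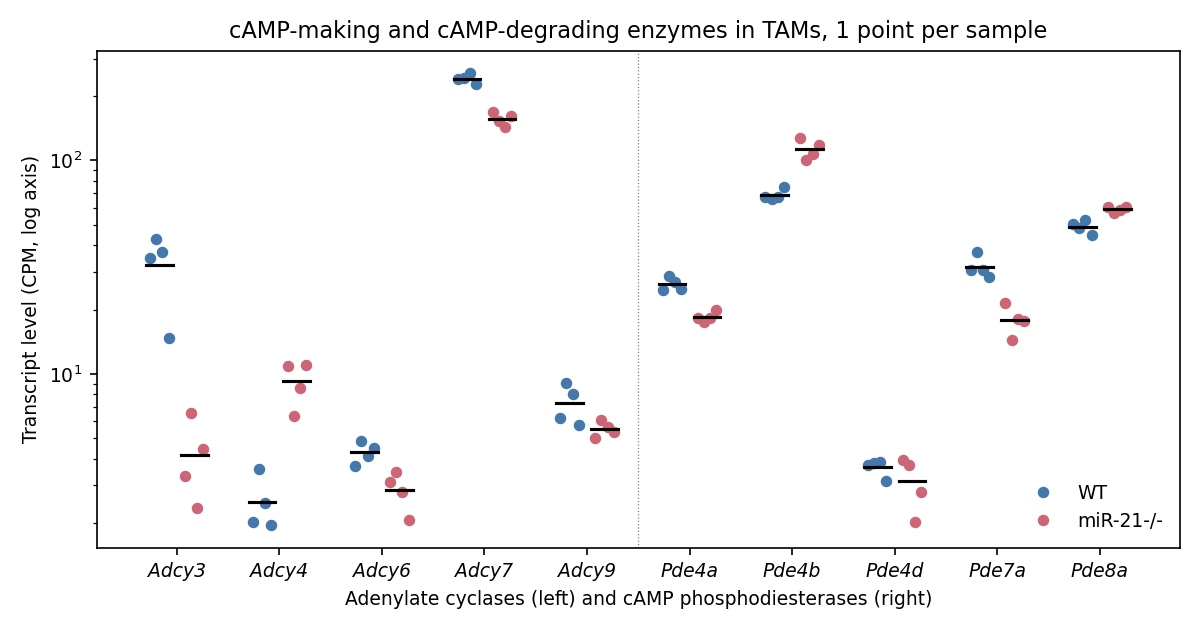
Transcript level of the 10 enzymes in CPM on a log axis, with 1 point per sample, blue for WT and red for miR-21-/-, and black bars for the means of 4 samples. Adcy3, Adcy7 and Pde7a sit lower and Adcy4 and Pde4b higher in miR-21-/- TAMs, with 1 WT point of Adcy3 at 14.7 CPM, and the groups of Adcy9 and Pde4d overlap.

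Of the 5 member phosphodiesterases, Pde4b and Pde8a were higher in miR-21-/- TAMs, Pde4b by the larger amount. Pde4b (chr4:102087543-102607259, plus strand) is the PDE4 form that macrophages are known to induce after lipopolysaccharide. It was at 67.5, 66.2, 67.2 and 75.2 CPM in WT and at 127, 101, 107 and 118 CPM in miR-21-/- samples. The lowest miR-21-/- sample was above the highest WT sample, the means were 69.0 ± 4.14 and 113 ± 11.9 CPM (SD, n = 4 each), a ratio of 1.64, and the log2 difference was 0.70 ± 0.078 (SE). Pde8a, a phosphodiesterase of high affinity for cAMP that rolipram does not inhibit (chr7:81213596-81334533, plus strand), was at 50.5, 48.2, 52.6 and 44.7 CPM in WT and at 60.8, 56.9, 58.7 and 60.8 CPM in miR-21-/- samples. It too was higher in each miR-21-/- sample than in any WT sample, with a log2 difference of 0.27 ± 0.059 (SE).

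Pde7a, another rolipram-insensitive enzyme, known from T cells and other leukocytes (chr3:19223108-19311322, minus strand), was lower in miR-21-/- TAMs. It was at 30.8, 37.3, 30.7 and 28.3 CPM in WT and at 21.4, 14.4, 18.0 and 17.6 CPM in miR-21-/- samples. The groups were separate, at 31.8 ± 3.84 and 17.8 ± 2.84 CPM (SD, n = 4 each), a ratio of 1.79, with a log2 difference of -0.80 ± 0.12 (SE). The T cell markers went different ways. Of 7 tested, 1 was past the limits, Cd4, and lower in miR-21-/- TAMs (log2 fold change -2.35). The log2 fold changes of the other markers ran from -0.06 (Lck) to 1.28 (Cd8a). In WT TAMs Cd4 had the highest mean of the list, 16.6 CPM, and the others 1.08 (Cd3d) to 3.29 CPM (Trac). The fall of Cd4 is therefore not read as a fall of T cells, and Cd4 weighs most in the WT sum. As given below, Cd4 was also among the 5 transcripts nearest in profile to Adcy3. Cd8a was at 1.32 to 2.19 CPM in WT and 2.80 to 11.6 CPM in miR-21-/- samples, which did not overlap, and Cd3e at 1.95 to 2.60 and 0.921 to 5.58 CPM, which did. The sum of the list was 20.5 to 42.1 CPM in WT and 9.33 to 39.7 CPM in miR-21-/- samples, and its part in the level of Pde7a was not tested.

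Pde4a and Pde4d, the other PDE4 forms of the list, did not behave as Pde4b did. Pde4a (chr9:21165714-21213248, plus strand) was at 24.8, 28.6, 26.9 and 25.1 CPM in WT and at 18.3, 17.5, 18.2 and 19.9 CPM in miR-21-/- samples. It was lower in every miR-21-/- sample, and its log2 difference was -0.49 ± 0.068 (SE). Pde4d (chr13:108449948-109953461, plus strand) was at 3.74, 3.81, 3.86 and 3.15 CPM in WT and at 3.96, 3.75, 2.03 and 2.78 CPM in miR-21-/- samples. These groups overlapped and the log2 difference was -0.19 ± 0.15 (SE). The pseudogene Rps3a3, at 12.2 to 19.2 CPM, lies inside Pde4d and shares no annotated exon base with it.

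Pde4b has several RefSeq start sites, and the first is shown because it is the member phosphodiesterase with the largest positive difference and its window holds the core letters of a cAMP response element (CRE), the site through which CREB acts. The window lies at chr4:102421305-102421604 on the plus strand in GRCm38.p6, and the capitals mark TGACG on either strand from -34 to -30.
Pde4b first start: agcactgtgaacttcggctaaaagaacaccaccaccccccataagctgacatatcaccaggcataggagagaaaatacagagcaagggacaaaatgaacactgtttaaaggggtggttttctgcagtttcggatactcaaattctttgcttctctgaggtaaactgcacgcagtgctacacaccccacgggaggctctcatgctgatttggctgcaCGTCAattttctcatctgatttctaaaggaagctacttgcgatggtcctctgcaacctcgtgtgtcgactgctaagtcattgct
RefSeq gave 16 such windows of 300 bases for 8 of the 10 members, all but Adcy6 and Pde7a. In all, 7 motifs, chosen after the data were seen, were searched on both strands. The full CRE, TGACGTCA, was in no member's window and in 1.79% of all 32851 windows. TGACG, which lies inside it, was in 5 member windows (31.2%; Adcy7, Adcy9, Pde4a, Pde4b and Pde8a) and in 20.8% of all. TTCNNNGAA was in 3 member windows (18.8%; Adcy3, Adcy7 and Pde4b) and in 8.30% of all, and GAGGAAGT in 1 (6.25%; Adcy3) and in 3.20% of all. The E-box CACGTG and a 10-base form of the interferon-stimulated response element were in no member's window, against 7.15% and 3.44% of all, and an 11-base form of the NF-kB site was in 1 (6.25%; Pde4b), against 5.86%. A match is a description of letters, and members with TGACG were found on both sides, Pde4b and Pde8a with higher and Adcy7 and Pde4a with lower levels in miR-21-/- TAMs.

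Whether the members carry sites for the deleted microRNA was read from the 3′ UTRs of GENCODE vM21. The mature sequence from RefSeq (chr11:86584120-86584141, minus strand, GRCm38.p6) is printed with its seed in capitals.
miR-21a-5p: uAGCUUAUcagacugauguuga
Pairing with this seed needs ATAAGCT or TAAGCTA, sites of 7 bases, or ATAAGCTA, the site of 8. None of the 10 members had such a site in its longest 3′ UTR of a protein-coding transcript, nor the 6-base TAAGCT, while 12.4% of the 11449 tested genes with a 3′ UTR had a site of 7 or 8 bases. The members' 3′ UTRs measured 84 bases (Adcy4) to 4528 bases (Pde7a). When every annotated 3′ UTR was read, 1 member, Pde4b, had a 7-base site, in a transcript annotated for nonsense-mediated decay, against 14.3% of tested genes. That site lies at chr4:102557052-102557058 on the plus strand and is shown in capitals with its neighbouring bases.
Pde4b site: ggctgactggcTAAGCTAagcagttccta
A transcript of Pde7a of the same kind had a 6-base site across a splice junction. Presence or absence of these letters says nothing on other ways in which miR-21 can act.

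Levels can be compared between genes only per length. Divided by the length of the longest coding transcript, Adcy7 was at 40.7 ± 1.95 CPM per kb in WT TAMs and 26.3 ± 1.78 in miR-21-/- TAMs (SD, n = 4 each). Pde4b was at 16.0 ± 0.962 and 26.3 ± 2.77 CPM per kb, so that in miR-21-/- TAMs the ranges of Adcy7 and Pde4b overlapped, whereas in WT TAMs Adcy7 stood above. In WT TAMs Pde8a followed at 12.9 ± 0.884, then Adcy3 at 6.54 ± 2.48, Pde4a at 5.66 ± 0.382 and Pde7a at 5.04 ± 0.610 CPM per kb, and these last neighbours overlapped. Adcy9, Pde4d, Adcy4 and Adcy6 were lowest, from 1.46 ± 0.309 down to 0.710 ± 0.0837 CPM per kb, with the order of Pde4d, Adcy4 and Adcy6 within their spread. Adcy3 stood at rank 4 of the 10 in WT and at rank 8 in miR-21-/- TAMs, with 0.842 ± 0.367 CPM per kb, and Adcy4 at ranks 9 and 6, with 0.714 ± 0.214 and 2.63 ± 0.634 CPM per kb. In miR-21-/- TAMs the neighbours Pde7a and Adcy4 overlapped, as did Adcy9, Adcy3, Pde4d and Adcy6 in that order.

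The make-up of the cyclase pool differed accordingly. The 5 cyclases summed to 50.1, 53.2, 53.5 and 43.6 CPM per kb in WT and to 33.6, 30.6, 28.7 and 32.5 CPM per kb in miR-21-/- samples. No miR-21-/- sum reached the lowest WT sum. Of this summed level Adcy7 made up 81.5% ± 4.44 in WT and 83.9% ± 0.499 in miR-21-/- TAMs (SD, n = 4 each), shares that overlapped between samples. Adcy3 made up 14.0%, 16.2%, 14.1% and 6.78% in WT and 1.99%, 4.34%, 1.65% and 2.76% in miR-21-/- samples. Adcy4 made up 1.41% ± 0.343 in WT and 8.35% ± 1.69 in miR-21-/- TAMs, so that the cyclase in second place was Adcy3 in every WT sample and Adcy4 in every miR-21-/- sample.

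The 5 member phosphodiesterases went the other way in sum. They summed to 40.1, 41.0, 41.0 and 39.9 CPM per kb in WT and to 53.8, 45.3, 47.5 and 51.2 CPM per kb in miR-21-/- samples. Pde4b made up 39.6% ± 2.87 of this in WT and 53.1% ± 1.5 in miR-21-/- TAMs (n = 4 each, SD). The share of Pde8a was alike, at 31.8% ± 1.96 and 31.6% ± 1.49, while Pde4a made up 14.0% ± 0.754 and 8.05% ± 0.502 and Pde7a 12.4% ± 1.37 and 5.71% ± 0.556. With the union of annotated exons as the length, 10560 in place of 4304 bases for Pde4b, the share of Pde4b was 24.7% and 35.3% and Pde8a led in both genotypes with 45.7% and 48.4%. The lead among these 5 thus depended on the length taken, and the higher share of Pde4b in miR-21-/- TAMs did not. The overlap of Pde4b with Adcy7 rested on it as well, since with the union of exons Adcy7 made up 85.0% of 27.4 CPM per kb of cyclases and Pde4b 35.3% of 30.4 CPM per kb of phosphodiesterases in miR-21-/- TAMs. These sums and shares leave out phosphodiesterases that are no members, such as Pde1b, at 19.9 ± 3.53 and 20.1 ± 2.42 CPM per kb (longest coding transcript), and Pde3b, at 12.5 ± 0.648 and 8.07 ± 0.945 CPM per kb. Transcript levels do not measure enzyme activity or cAMP.

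**Figure D2:**
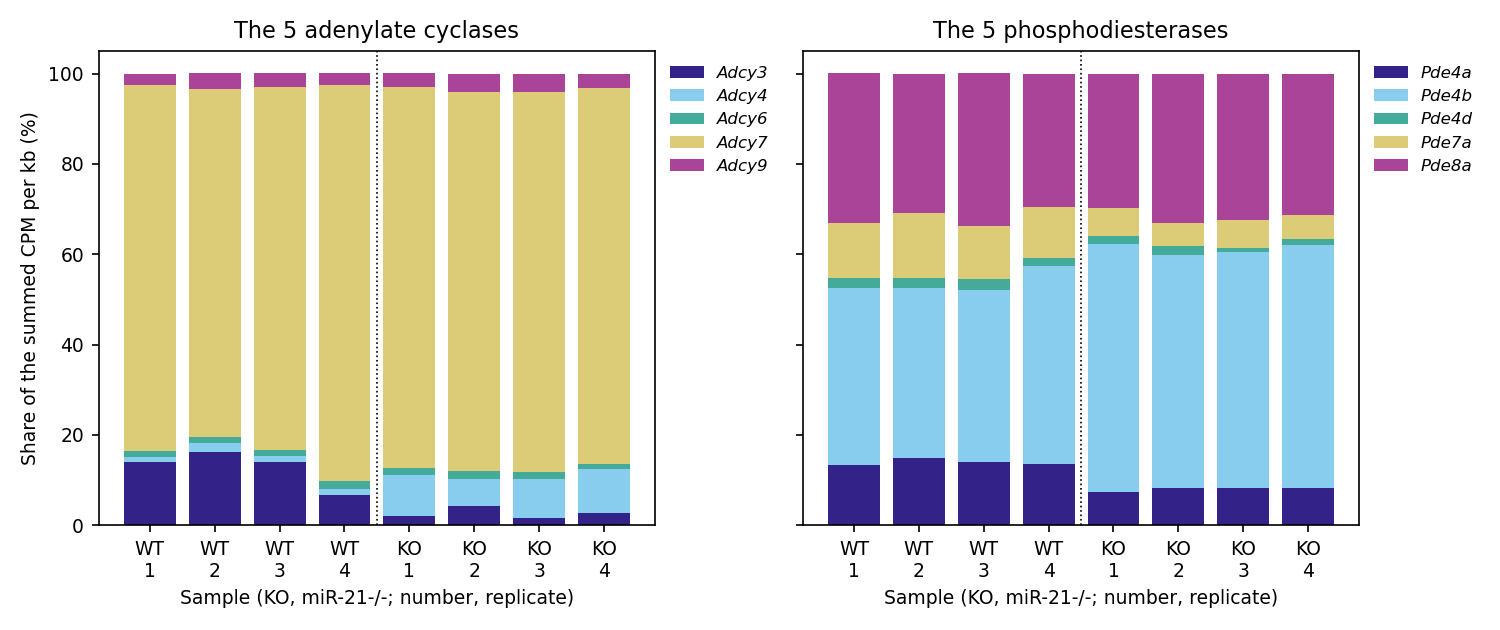
Share of each enzyme in the summed CPM per kb (longest coding transcript) of the 5 adenylate cyclases (left) and the 5 phosphodiesterases (right), 1 bar per sample, summing to 100%, with WT left of the dotted line. Adcy7 fills most of every cyclase bar, the Adcy3 part is 6.78% to 16.2% in WT and 1.65% to 4.34% in miR-21-/- samples, and the Pde4b part is wider in all miR-21-/- samples.

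The 5 tested transcripts with a profile over the 8 samples nearest to Adcy3, by the root mean square difference of centred log2(CPM + 1) values, were Igf1 (0.177), Slco2b1 (0.300), B3gnt7 (0.356), Cd4 (0.402) and Gas6 (0.428). Igf1, a growth factor made by macrophages, was at 48.0, 62.7, 44.3 and 16.0 CPM in WT and at 5.82, 8.60, 3.65 and 5.13 CPM in miR-21-/- samples. Like Adcy3, all 5 had their lowest WT value in replicate 4 and were lower in every miR-21-/- sample than in any WT sample. Gas6, a ligand of the receptors Axl and Mertk, was at 65.3 to 212 CPM in WT and 27.5 to 50.7 CPM in miR-21-/- TAMs. Slco2b1, a transporter of organic anions, was at 4.06 to 11.9 CPM and 0.0768 to 0.425 CPM. The likeness includes the genotype difference itself, by which Adcy3 was chosen, and is given as a description. These genes were picked for likeness over the same 8 samples, so the shared low value in WT replicate 4 is no separate observation.

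**Figure D3:**
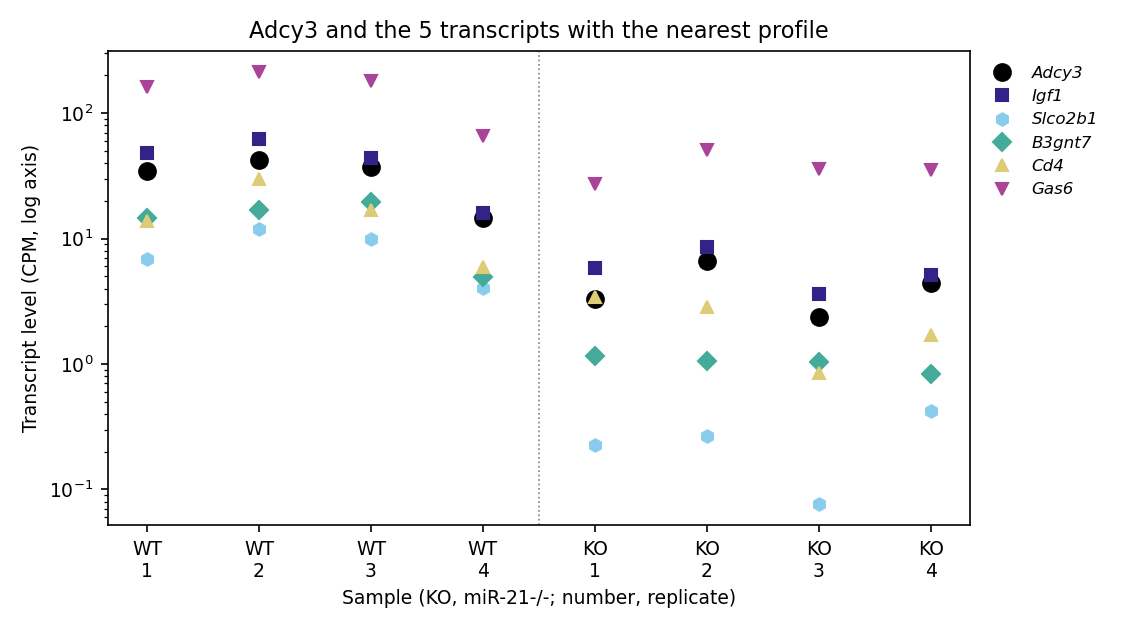
Level in CPM on a log axis of Adcy3 (black circles) and the 5 transcripts with the nearest profile, 1 mark per gene and sample, WT left and miR-21-/- (KO) right of the dotted line. All 6 are lower in the miR-21-/- samples, and WT replicate 4 holds the lowest WT value of each, 14.7 CPM for Adcy3.

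Markers of other cells were followed beside these results. Of 6 markers of resident-like macrophages, 5 were tested and 1, the fractalkine receptor Cx3cr1, passed the limits, at 40.5, 77.3, 46.8 and 26.6 CPM in WT and 3.47, 2.37, 1.96 and 2.98 CPM in miR-21-/- samples. Cd163 was at 68.4, 102, 115 and 15.6 CPM in WT and 7.67 to 26.5 CPM in miR-21-/- samples, which overlapped and did not pass. Lyve1, at 0.398 to 3.71 CPM in WT and 0.132 to 0.63 CPM in miR-21-/- samples, overlapped and did not pass either. Its log2 fold change was -1.19. All 5 tested markers of the list had their lowest WT value in replicate 4. Folr2, at 67.2 to 108 CPM in WT and 73.4 to 112 CPM in miR-21-/- samples, and Mrc1, at 1611 to 3216 and 1941 to 2893 CPM, had log2 fold changes of 0.06 and 0.04. The summed level of the list, led by Mrc1, overlapped between the genotypes, at 1722 to 3429 and 2026 to 3027 CPM, and no marker of it was at 0 in all samples. Of 8 markers of fibroblasts and pericytes, 6 were tested and 4 were past the limits, lower in miR-21-/- TAMs. The sum of the list was 69.1 to 143 CPM in WT and 11.9 to 46.2 CPM in miR-21-/- samples, and did not overlap. Of 5 B cell markers 1 was tested, Cd79b, and it was lower past the limits. The summed B cell markers, 11.4 to 17.6 CPM in WT and 3.84 to 11.3 CPM in miR-21-/- samples, and 6 epithelial and tumor markers, 18.8 to 24.8 and 12.7 to 17.9 CPM, did not overlap either. Of 7 dendritic cell markers, all tested, none passed the limits, and their sum, mostly Itgax, overlapped at 342 to 414 CPM in WT and 364 to 620 CPM in miR-21-/- samples. Clec9a, at 2.30 to 2.74 CPM in WT and 4.18 to 14.0 CPM in miR-21-/- samples, was the marker of this list without overlap, like Cd8a of the T cell list. The log2 fold changes of Xcr1 (1.06), Clec9a (1.26) and Itgax (0.32) were positive, and those of Flt3 (-0.50), Zbtb46 (-0.41), Batf3 (-0.19) and Ccr7 (-0.03) negative.

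None of the 5 tested neutrophil markers passed, and the sum of all 7 markers of that list was 471 to 853 CPM in WT and 357 to 502 CPM in miR-21-/- samples, with overlap. S100a8 (-0.52), S100a9 (-0.62), Cxcr2 (-0.36) and Retnlg (-0.81) had negative log2 fold changes, Ly6g (0.31) a positive one, and Mpo and Elane were under 0.5 CPM in every sample. None of the 6 monocyte markers passed either, with sums of 692 to 1160 and 600 to 1079 CPM and log2 fold changes from -0.96 (Plac8) to 0.52 (Vcan). The NK cell markers summed to 1.25 to 4.14 and 1.31 to 4.11 CPM, and Gzma, the one tested, did not pass. Sorting on CD45, CD11b, F4/80 and MHCII is meant to leave out fibroblasts, pericytes, epithelial and tumor cells, lymphocytes and neutrophils. The part of all these cells in the levels of the members was not tested.

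The rest of the enzyme families is given with tests, since these genes were no members. None of the 5 other cyclases, Adcy1, Adcy2, Adcy5, Adcy8 and Adcy10, was tested, with every sample at or under 0.319 CPM, and Adcy8 was at 0 in all. Of 11 other phosphodiesterases that can break down cAMP, 4 were tested. Pde3b, a form inhibited by cGMP, was at 84.7, 84.9, 76.0 and 83.7 CPM in WT and at 54.8, 44.2, 54.5 and 58.7 CPM in miR-21-/- samples, and fell (log2 fold change -0.63 ± 0.084 SE, limma adjusted p = 0.000494). Without miR-21-/- replicate 2 its fold change was -0.55, under the fold limit, as under both other scalings. Pde7b, the partner of Pde7a, was at 25.9 to 30.9 CPM in WT and 37.3 to 42.5 CPM in miR-21-/- samples, opposite in sign to Pde7a, with a log2 fold change of 0.52 ± 0.070 (SE; limma adjusted p = 0.000536) that was under the fold limit. With quantile normalization and with the median of ratios it was 0.61 and 0.63 and passed. Pde1b, a form stimulated by calcium and calmodulin, was at 51.7 to 78.2 and 57.5 to 76.1 CPM, with a log2 fold change of 0.03 ± 0.12 (SE; limma adjusted p = 0.879). Pde8b was at 3.06 to 3.85 and 3.26 to 4.17 CPM (log2 fold change 0.04 ± 0.10 SE, limma adjusted p = 0.80).

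Around the enzymes, 94 genes of the cAMP pathway were followed, and 72 were tested. Of these 5 rose and 6 fell past the limits, 15.3% beside 7.12% of all tested genes. The lists were chosen with earlier results of these data known, so this share is a description and no test of the pathway. Their median log2 fold change was -0.09, against -0.10 over all tested genes and -0.40 over the 10 members. With rescaling by the median of ratios, which moved the median of all genes from -0.10 to 0, 8 rose and 2 fell. Upstream, 11 of 13 receptors that couple to Gs were tested, with 2 higher and 2 lower. The prostaglandin E2 receptors went opposite ways. Ptger2 was at 4.67 to 6.24 CPM in WT and 7.83 to 9.78 CPM in miR-21-/- samples (log2 fold change 0.61 ± 0.10 SE, limma adjusted p = 0.00167), and Ptger4 at 22.0 to 33.9 and 14.2 to 18.7 CPM (log2 fold change -0.68 ± 0.13 SE, limma adjusted p = 0.00266). The adenosine receptor Adora2b was at 6.45 to 9.13 and 9.94 to 14.4 CPM (log2 fold change 0.67 ± 0.14 SE, limma adjusted p = 0.00421).

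The calls of these 3 receptors depended on which samples were included. That of Ptger2 was lost without WT replicate 2 (0.54, under the fold limit) and without miR-21-/- replicates 1, 2 or 4 (adjusted p of 0.00565 to 0.00647). That of Ptger4 was lost without any of 6 samples, WT replicates 2, 3 and 4 and miR-21-/- replicates 2, 3 and 4 (limma adjusted p of 0.00587 to 0.00904). That of Adora2b was lost without WT replicates 2, 3 or 4 or miR-21-/- replicates 1, 2 or 4 (limma adjusted p of 0.00744 to 0.0147). Adrb1 had the lowest fold change of the receptors, at 1.44 to 10.0 CPM in WT and 0.261 to 3.70 CPM in miR-21-/- samples (log2 fold change -1.48 ± 0.50 SE, limma adjusted p = 0.0413), and the prostacyclin receptor Ptgir the highest, at 4.18 to 7.96 and 8.80 to 14.0 CPM (log2 fold change 0.75 ± 0.18 SE, limma adjusted p = 0.0106), and neither passed.

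Between the receptors and the enzymes, none of the 4 tested G protein alpha subunits and none of the 7 genes of receptor desensitization passed. Gnas, which encodes the Gs alpha subunit, was at 133 to 162 CPM in WT and 119 to 140 CPM in miR-21-/- samples (log2 fold change -0.21 ± 0.077 SE, limma adjusted p = 0.0531). The receptor kinase Grk3 was at 166 to 269 and 103 to 173 CPM (log2 fold change -0.78 ± 0.18 SE, limma adjusted p = 0.00832), and it passed without WT replicate 1 (-0.90, limma adjusted p = 0.00499) or miR-21-/- replicate 4 (-0.93, limma adjusted p = 0.00249). Gnai3 and Grk6 stood at the upper end of these lists, with log2 fold changes of 0.05 ± 0.052 and -0.06 ± 0.066 (SE). All 7 desensitization genes had negative fold changes, with a median of -0.16, beside 9250 of the 13850 tested genes and a median of -0.10. With rescaling by the median of ratios Grk6 had a positive one.

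Downstream, none of the 8 tested PKA subunits and inhibitors and none of the 3 tested genes of Epac and Rap1 passed. The regulatory subunits Prkar2b (11.1 to 14.5 CPM in WT, 17.0 to 20.3 CPM in miR-21-/- samples; log2 fold change 0.52 ± 0.089 SE, limma adjusted p = 0.00177) and Prkar1b (3.45 to 4.36 and 1.49 to 3.06 CPM; log2 fold change -0.77 ± 0.16 SE, limma adjusted p = 0.00516) marked the ends of the PKA list. Prkar2b passed with quantile normalization (0.64) and the median of ratios (0.63), and Prkar1b without miR-21-/- replicate 2 (-0.94, limma adjusted p = 0.000767). Rap1b and Rap1a, small GTPases that Epac activates, had log2 fold changes of 0.26 ± 0.069 and -0.09 ± 0.087 (SE). Of 11 tested anchor proteins of PKA, 1 passed. Akap1, which holds PKA at mitochondria, was at 13.0 to 18.7 CPM in WT and 9.0 to 11.2 CPM in miR-21-/- samples, and fell (log2 fold change -0.68 ± 0.11 SE, limma adjusted p = 0.00144). Without WT replicates 2 or 3 or miR-21-/- replicate 2 its adjusted p was 0.00522 to 0.00593, above the limit. With either other scaling, Akap1, Ptger4, Pde3b and Per1 no longer passed, nor did Thbs1 with quantile normalization, while Pde7b, Prkar2b and the histamine receptor Hrh2 did. Akap6, at 0.623 to 3.84 and 0.0768 to 0.360 CPM, and Akap7, at 9.04 to 10.3 and 9.33 to 12.6 CPM, had the lowest and highest fold changes of the list (-1.09 ± 0.31 and 0.24 ± 0.098, SE) and did not pass.

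Of the 8 CREB factors and coactivators 1 passed. Crem, a factor that CREB itself is known to induce, was at 18.1, 13.7, 15.2 and 17.8 CPM in WT and at 35.0, 30.3, 28.4 and 27.5 CPM in miR-21-/- samples. It rose in every miR-21-/- sample over every WT sample (log2 fold change 0.87 ± 0.10 SE, limma adjusted p = 0.000269), and its call held in all 16 alternative fits. Creb1 had the lowest fold change of the list, at 67.0 to 76.1 CPM in WT and 56.6 to 66.3 CPM in miR-21-/- samples (log2 fold change -0.21 ± 0.062 SE, limma adjusted p = 0.0231).

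Transcripts known to be induced by cAMP did not move together. Of 14 tested, 2 rose and 2 fell. Thbs1, encoding the matrix protein thrombospondin, was at 1540, 914, 1531 and 933 CPM in WT and at 3493, 2417, 2558 and 2055 CPM in miR-21-/- samples (log2 fold change 1.12 ± 0.21 SE, limma adjusted p = 0.00328). Vegfa, the vascular growth factor, was at 49.9, 36.0, 67.8 and 44.5 CPM in WT and at 97.0, 88.6, 107 and 108 CPM in miR-21-/- samples (log2 fold change 1.03 ± 0.16 SE, limma adjusted p = 0.00102). Both rose, with no overlap between the genotypes. The call of Thbs1 was lost with quantile normalization (0.92, limma adjusted p = 0.0104), with no filter on low genes (adjusted p = 0.0209) and without the trend of eBayes (adjusted p = 0.00571), and that of Vegfa with no filter (adjusted p = 0.00816). Rgs2, a regulator that turns off G proteins, was at 159, 152, 165 and 202 CPM in WT and at 80.6, 58.0, 82.7 and 85.8 CPM in miR-21-/- samples, and fell (log2 fold change -1.14 ± 0.13 SE, limma adjusted p = 0.000192). The clock gene Per1 was at 89.1 to 126 CPM in WT and 54.4 to 74.4 CPM in miR-21-/- samples (log2 fold change -0.63 ± 0.13 SE, limma adjusted p = 0.00419). The call of Per1 was lost without any sample but WT replicate 2 (adjusted p of 0.00603 to 0.0123), and that of Thbs1 without WT replicates 2 or 4 or miR-21-/- replicates 1, 2 or 3 (adjusted p of 0.00726 to 0.0107). The calls of Rgs2 and Vegfa held without each sample in turn. The cAMP exporters Abcc4 and Abcc5 did not pass, with log2 fold changes of 0.45 ± 0.069 (SE; limma adjusted p = 0.00102, under the fold limit) and 0.23 ± 0.11 (SE; limma adjusted p = 0.122).

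**Figure D4:**
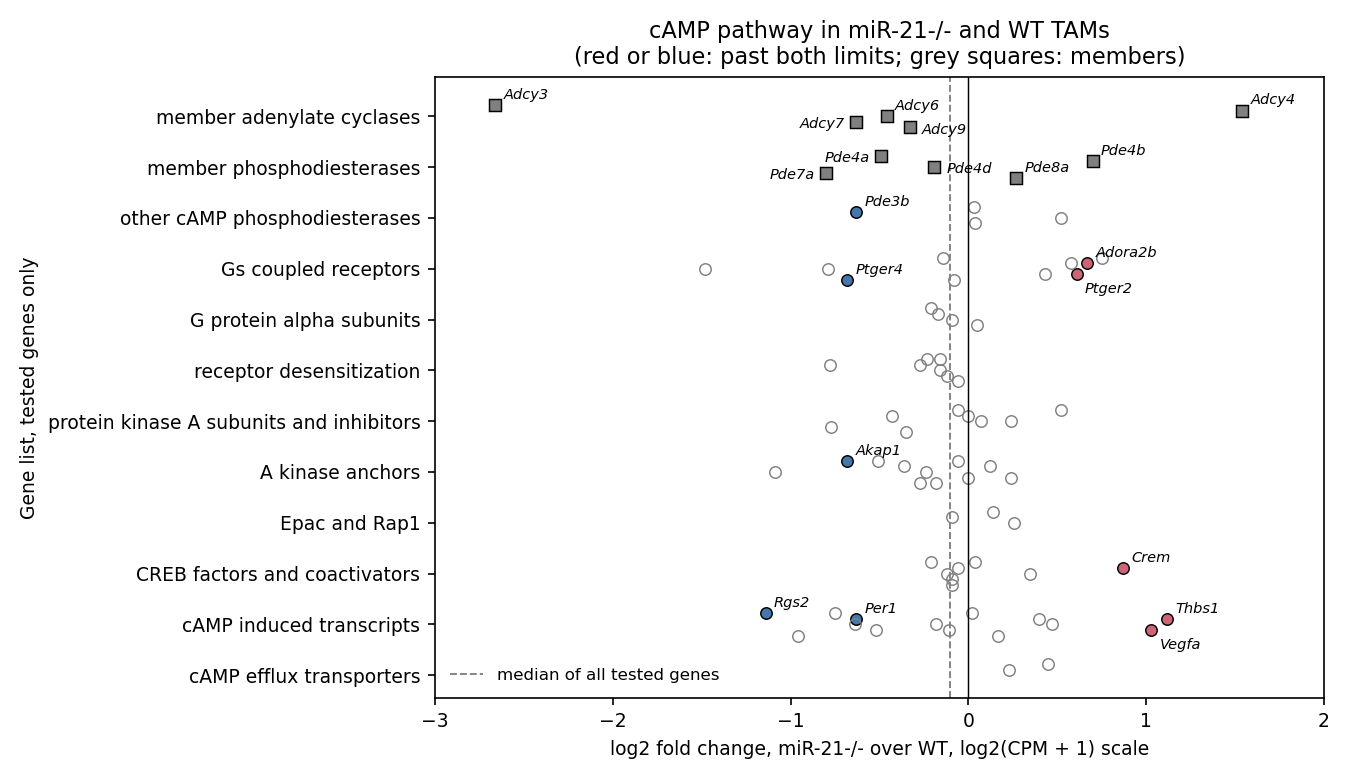
Difference in log2(CPM + 1) between miR-21-/- and WT TAMs (log2 fold change) for the 10 enzymes (top rows) and the tested genes of the cAMP pathway lists that are reported here, 1 mark per gene, with the members as grey squares and the other genes as circles, filled where both limits were passed (red higher, blue lower), and with a dashed line at -0.10, the median of all tested genes. Filled circles lie on both sides in the receptors and in the cAMP-induced transcripts, and none lies in the rows of G proteins, desensitization, PKA or Epac.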

How the data were processed

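Sorted TAMs, 4 samples per genotype, were sequenced from Kapa mRNA libraries. The submitters' processing notes name STAR, Partek 7.0 and the build mm10. The counting rule, annotation and strand setting are not given in the sources used here. The authors deposited CPM values, 1 per gene and sample, each raised by 0.0001, which was subtracted again. Up to 20 reads, 72.7% to 73.7% of the values were whole reads within 0.02 read, so whole counts were not recovered and precision is limited by 4 samples per genotype. The column totals were 788094 to 807753 CPM.

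log2(CPM + 1) was fitted with limma 3.58.1 in R 4.3.3 (eBayes with trend, two-sided, Benjamini-Hochberg adjustment) over 13850 genes, whose mean was 1 or more per 1e+06 of the column totals. The replicates are separate samples by their labels. The model was tested on simulated data. The members and the gene lists were chosen with earlier results of these data known. All members are named, with, of each pathway list, the genes past the limits and those with the highest and lowest fold change, the 5 transcripts nearest to Adcy3, Mir21a and Vmp1. A gene that this rule selects is counted but not reported here. Other genes, such as markers, Cenpo and Pde1b, were named after their values were seen. Coordinates are those of the table, and all 10 members match GENCODE vM21, from which lengths and 3′ UTRs were taken. Replicate numbers of the miR-21-/- samples follow the order of listing and differ from the numbers in their titles, so a shared number does not mark a pair. Alternatives were another pseudocount, filter, scaling or limit, eBayes without trend, a replicate block, leaving out each sample, another length, and every annotated 3′ UTR. Figures were drawn with matplotlib 3.10.9.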

Additional observations from a re-analysis of the deposited data

Results flagged for a closer look

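Of 84 groups of 4 samples checked over the members and the other genes named by rule, 6 held a sample whose gap to the nearest other sample, divided by the range of the group, was above the critical value of Dixon for 4 samples, and chance gives about 1 in 20. Among the members, Pde4b was high in WT replicate 4, at 75.2 CPM where the other WT samples were at 66.2 to 67.5 CPM, and Pde4d was low in the same sample, at 3.15 CPM against 3.74 to 3.86 CPM. Pde3b was low in WT replicate 3, at 76.0 CPM against 83.7 to 84.9 CPM, and Adora2b high in WT replicate 1, at 9.13 CPM against 6.45 to 6.79 CPM. In miR-21-/- TAMs, Pde7b was low in replicate 4, at 37.3 CPM against 41.7 to 42.5 CPM, and Prkar1b high in replicate 2, at 3.06 CPM against 1.49 to 1.64 CPM. Adcy3 in WT replicate 4, at 14.7 CPM, was not among the 6.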

How the results depend on the processing

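The number of genes past the limits was 986 and fell to 452 with a pseudocount of 10 and to 515 with no filter on low genes, and it was 4982 with an adjusted p limit of 0.05 and no fold limit. Leaving out each sample gave 685 to 1001. Of the members, as a description, 5 were past the limits, 4 with the median of ratios and with no filter, 5 under the other settings and 8 with the limit of 0.05 alone. No member's log2 difference changed sign. With a pseudocount of 10 that of Adcy3 was -1.53 and that of Adcy4 0.61. Of the pathway genes, 11 passed, 5 with a pseudocount of 10, 4 with no filter, 37 with the limit of 0.05 alone, and 5 to 12 when each sample was left out. The calls of Adora2b, Ptger2, Ptger4, Akap1, Per1, Thbs1 and Vegfa were lost with no filter (adjusted p of 0.00726 to 0.0223), those of Pde3b, Adora2b, Ptger2, Ptger4, Akap1 and Per1 with a pseudocount of 10, under the fold limit, and those of Adora2b, Per1 and Thbs1 without the trend of eBayes. The fold changes of Grk6 (0.05) and Rap1a (0.02) turned positive with the median of ratios. The causes were not tested. Deviations of samples with the same replicate number correlated at 0.0828, -0.111, -0.143 and 0.220. The replicate block used these numbers, which in miR-21-/- samples follow the order of listing. By the numbers in the titles, WT replicate 3 goes with miR-21-/- replicate 2 (0.135). WT replicate 4 likewise goes with miR-21-/- replicate 3 (0.0318). Whether samples were paired cannot be told from these values. With the replicate block 922 genes, 5 members and 14 pathway genes passed, while Ptger2 (adjusted p = 0.00589) and Ptger4 (adjusted p = 0.00987) did not and Adrb1 (0.00329), Ptgir (0.00176), Grk3 (0.00181), Prkar1b (0.00419) and Sik1 did. The count tests planned for recovered reads were not run. Depth limits genes near 0.0899 to 0.148 CPM, which 3 reads were worth.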
